A study of Drosophila melanogaster and Drosophila simulans and Drosophila yakuba with 27 samples.

Results

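The dpr and beat genes of Drosophila encode surface proteins of neurons, and their transcript levels were followed here through brain, eye-antennal disc and wing disc of wandering larvae. Members were taken by name from the deposited table of normalised expression: a row counted where its name was dpr followed only by digits, or where it began with beat-. This gave 33 genes of 15439 rows, namely 19 dpr genes (dpr2 to dpr20) and 14 beat genes (beat-Ia, Ib, Ic, IIa, IIb, IIIa, IIIb, IIIc, IV, Va, Vb, Vc, VI and VII). The rule used names and no measured values, but it was set with earlier results of these data known. Just outside the rule lay the row dpr, the founding gene that is now called dpr1, and the row CG42596, now called dpr21. Brain signal was 5.13 to 18.1 over 9 lines for dpr and 56.5 to 68.5 over 3 lines for CG42596.

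RNA was sequenced from brains, eye-antennal imaginal discs and wing imaginal discs of third-instar larvae raised at 25 °C, with 1 library for each tissue of 9 lines, 27 libraries in all. The lines were the D. melanogaster strains RAL-208 (genotype DGRP-208) and Canton S, D. simulans w[501], D. ananassae In(3R)A, and wild-type D. virilis, D. mojavensis, D. willistoni, D. pseudoobscura and D. yakuba. The eye-antennal disc gives rise to eye, antenna and head capsule, and the wing disc to wing and notum. Each tissue was sequenced from a line a single time, and the 9 lines therefore serve as its replicates. They share ancestry and are not independent draws. The number of animals behind a library is not given in the sources used.

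Dpr proteins are small cell-surface proteins with immunoglobulin domains, named after the proboscis extension defect of the founding mutant. They bind the DIP proteins, another immunoglobulin family, and neurons that express a Dpr often contact neurons that express a DIP to which it binds, in the optic lobe and at the larval neuromuscular junction among other places. Beat proteins, named after the beaten path mutant, in which motor axons fail to leave their bundle at the muscle, bind the Sidestep (Side) family. The eye-antennal disc itself makes neurons, the photoreceptors that differentiate behind the morphogenetic furrow and send axons to the brain, whereas the wing disc makes sensory organ precursors of the fly's bristles.

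Levels below are given as the normalised signal of the authors' table, in which reads were scaled by exonic length and library, so that levels can be set beside each other between genes. Brain libraries held 4943047 to 20473119 counted reads, eye-antennal libraries 3642547 to 12811084 and wing libraries 4114414 to 14308891. A dpr or beat gene took a median of 207.5 reads in a brain library, 22 in an eye-antennal library and 4 in a wing library. These counts cover the 268 gene and line pairs whose signal could be tied to reads. Of these pairs 0, 2 and 34 had no read in brain, eye-antennal disc and wing disc. Pairs that could not be tied were left out, some of them with a wing signal of 0, so the counts without a read are lower limits. Wing values therefore rest on few reads, and small differences between low wing values were not detectable at this depth. Neuronal markers were highest in brain, photoreceptor markers in eye-antennal disc and wing markers in wing disc. The summed signal of 11 of 13 listed neuronal markers found in the table was 543 to 1255 in brain, 96.3 to 438 in eye-antennal disc and 26.5 to 134 in wing disc. The sum of 8 photoreceptor and furrow markers was 43.1 to 98.8 in brain, 278 to 474 in eye-antennal disc and 9.96 to 46.3 in wing disc. The 4 wing markers summed to 56.6 to 98.9 in brain, 5.74 to 45.6 in eye-antennal disc and 247 to 458 in wing disc. Markers of neighbouring tissues were present too. The ring gland is attached to the brain. Its markers (3 genes) summed to medians of 263 in brain, 230 in eye-antennal disc and 8.27 in wing disc. The ring gland sum in wing disc reached 160 in D. willistoni, with D. ananassae next at 15.2. Fat body markers (3 genes) summed to medians of 789, 2181 and 1285 in brain, eye-antennal disc and wing disc. Muscle markers (4 genes) had medians of 33.1, 80.2 and 26.0 and reached 479 in the brain of D. simulans and 546 in the eye-antennal disc of D. ananassae. The 6 neuroblast markers had medians of 163, 145 and 124, but in D. mojavensis the sum was 94.9 in brain, 145 in eye-antennal disc and 153 in wing disc. In wing discs the photoreceptor sum was 23.8 to 46.3 in Canton S, D. simulans, D. yakuba and D. ananassae and 9.96 to 17.2 in the other 5 lines. The part of these tissues in the results was not tested. No marker was at 0 in every line. In bulk tissue, fewer cells of a type and less RNA per cell cannot be told apart.

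Some disc libraries held transcripts that are otherwise typical of brain, which bears on every comparison of these families. A set of 73 other genes was picked for a brain signal of at least 10 in each line and a median disc level under 10% of brain in both discs. In eye-antennal discs the median level of the 73 genes was 20.2% of brain for RAL-208, 11.6% for Canton S, 14.3% for D. simulans and 9.0% for D. mojavensis, against 2.09% to 5.65% in the other 5 lines. In wing discs it was 5.69% in D. simulans and 4.39% in D. virilis, against 0.438% to 1.07% in the other 7. The dpr and beat genes ran alongside: their median was 22.0% of brain in the eye-antennal disc of RAL-208, 18.1% for Canton S, 15.9% for D. simulans and 17.6% for D. mojavensis, and 4.20% to 9.01% in the other 5 lines. In wing discs their median was 8.10% in D. simulans and 6.24% in D. virilis, and 0.496% to 2.17% elsewhere. The part of such transcripts in the disc levels was not tested, and each disc comparison is also given without RAL-208, Canton S, D. simulans, D. mojavensis and D. virilis.

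**Figure D1:**
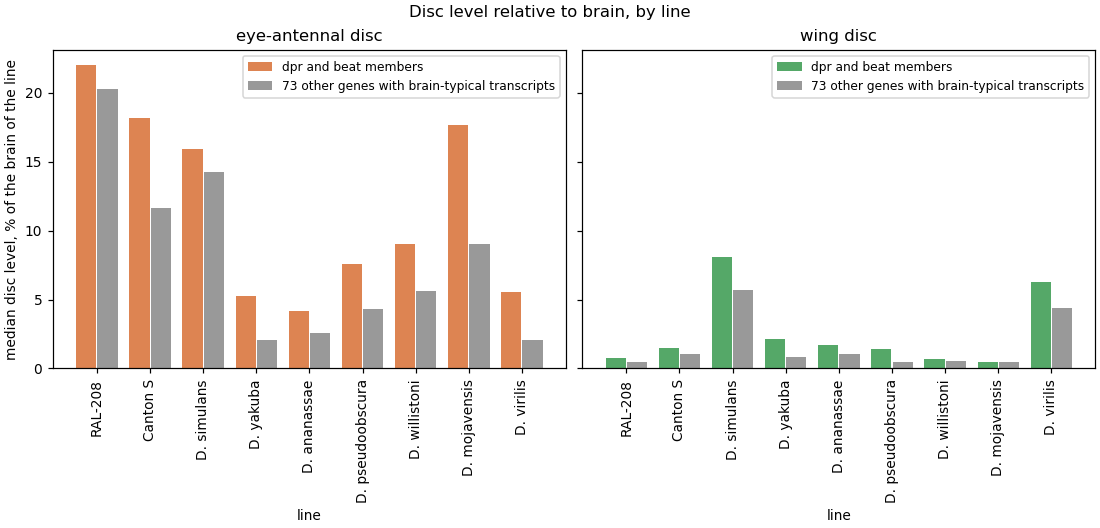
Median disc level as a percent of the brain level of the same line, in the eye-antennal disc (left panel) and the wing disc (right panel), with coloured bars for the dpr and beat genes and grey bars for the 73 brain-typical genes. In the eye-antennal disc both medians are highest in RAL-208 (22.0% and 20.2%), and in the wing disc in D. simulans (8.10% and 5.69%).

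All 33 genes had a value in RAL-208 and Canton S, and 26 of them, 13 dpr and 13 beat genes, had a value in every library. D. simulans lacked dpr2, dpr11 and dpr12, and D. mojavensis lacked dpr3, dpr7 and dpr8. D. virilis lacked dpr3 and dpr8, while D. yakuba and D. willistoni each lacked dpr7, D. pseudoobscura lacked dpr8 and D. ananassae lacked beat-IIIa. Of all rows of the table, 16.7% to 23.2% were without a value in these 7 lines. A missing value marks the ortholog table of the authors and not a level of 0.

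In brain the median gene of the dpr family stood at a signal of 12.2 and that of the beat family at 15.9, against 17.9 for the 9832 rows with a value in every library. In eye-antennal disc the corresponding medians were 1.34 and 1.40, against 16.96, and in wing disc 0.201 and 0.239, against 15.3. Both families were thus near the typical gene in brain and far under it in the discs. The median brain level of a member ranged from 5.90 for dpr2 to 128 for dpr7.

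**Figure D2:**
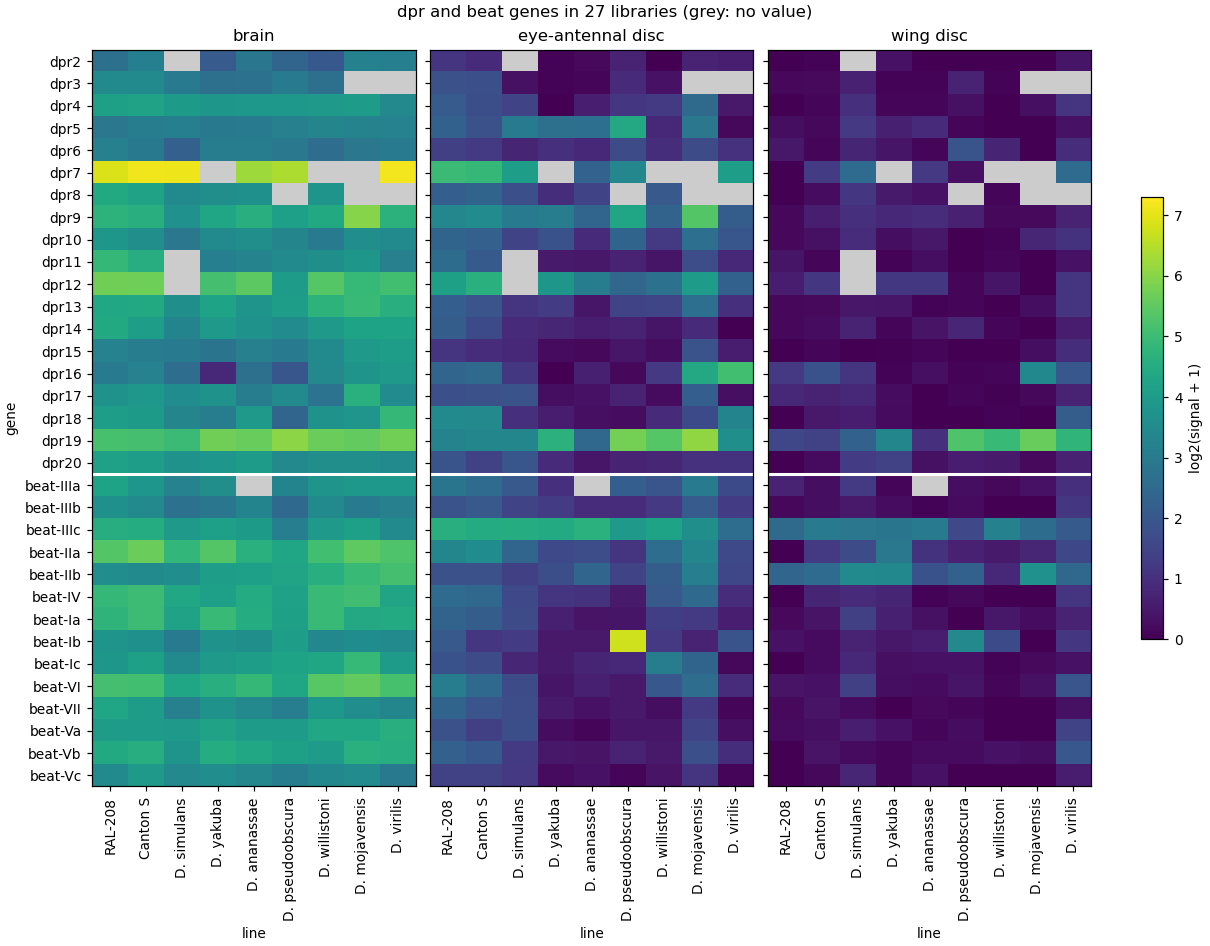
Levels of the 33 genes as log2(signal + 1), with genes in rows and the 9 lines in columns, in brain (left panel), eye-antennal disc (middle panel) and wing disc (right panel); grey cells have no value. Brain is filled throughout, eye-antennal disc is patchy, with dpr7, dpr9, dpr12, dpr19 and beat-IIIc as the fuller rows, and wing disc is near 0 in most rows apart from dpr19, beat-IIIc and beat-IIb.

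By the mean of the 3 tissue means, dpr7 led the dpr family at 45.3, followed by dpr19 at 29.6 and dpr12 at 16.4, and beat-IIa led the beat family at 13.9, followed by beat-IIIc at 12.9. The brain ranges of these neighbours overlapped in part. In brain, dpr7 (FBgn0053481, on chromosome 4) was at 119 in RAL-208 and 141 in Canton S, 137 in D. simulans, 74.7 in D. ananassae, 84.4 in D. pseudoobscura and 143 in D. virilis. Its lowest brain value lay above the highest brain value of dpr19 (FBgn0032233), 64.6 in D. pseudoobscura, so these leading dpr genes did not overlap in brain. The brain level of beat-IIa (FBgn0038498), whose protein is known as a ligand of Side-IV, was 18.7 in D. pseudoobscura at the lowest, 38.4 at the median and 49.0 in Canton S at the highest. That of dpr12 (FBgn0085414), a partner of DIP-delta, covered much the same span, with 15.2 in D. pseudoobscura, a median of 37.4 and 51.3 in RAL-208.

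Brain levels were more even between lines for some members than for others. The ratio of the highest to the lowest line had a median of 2.32 over the dpr genes and 2.30 over the beat genes. It was smallest for dpr5 at 1.37, with 6.49 in RAL-208 and 8.92 in D. willistoni as its ends, and for beat-Va at 1.61 among the beat genes. It was widest for dpr16 at 18.0, with 0.802 in D. yakuba and 14.4 in D. virilis, then for dpr18 at 6.63 and dpr9 at 5.12. Levels between species also hold differences in ortholog length and annotation, so these ratios are not differences in expression alone.

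Brain was compared with eye-antennal disc first. Of the 26 genes with a value in every library, 25 were higher in brain and none was lower in a limma fit to log2(signal + 1) that kept line as a block, at an adjusted p under 0.05 over 7677 genes. These were 13 of 13 dpr genes and 12 of 13 beat genes, beside 26.8% of all genes tested that were higher in brain and 25.8% that were lower. The median log2 difference was 2.04 for dpr and 2.74 for beat, against 0.00 for all genes. A gene could pass the filter on low values (a signal of at least 1 in at least 9 libraries) through its brain libraries alone, so the counts describe these genes and carry no support of their own. Every brain value lay above every eye-antennal value for 19 of the 26, beside 7.22% of all genes, and the reverse held for none, beside 2.87%. In all, 20 were higher in brain in each of the 9 lines, beside 18.2%.

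Of genes with a value in every library, the largest differences belonged to beat genes. The founding gene beat-Ia (FBgn0013433), a secreted protein of motor axons that binds Side, had a brain signal of 26.1 in RAL-208 and 31.2 in Canton S, 29.3 in D. yakuba, 17.3 in D. simulans, 21.8 in D. ananassae, 16.8 in D. pseudoobscura, 29.6 in D. willistoni, 20.2 in D. mojavensis and 20.9 in D. virilis. In the same order of lines its eye-antennal signal was 4.06, 3.45, 0.564, 2.27, 0.302, 0.343, 1.57, 1.35 and 0.538. All brain values lay above all eye-antennal values, and the D. melanogaster strains had the highest eye-antennal ones. Brain was 10.5-fold higher on the scale of signal plus 1, a log2 difference of 3.39 with a standard error (SE) of 0.22 (limma, adjusted p = 2.6e-10). All folds and rankings of differences from limma are on this scale, on which the gaps of genes near 0 in a disc come out smaller.

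Next came beat-VI (FBgn0039584), a partner of Side-II, with 19.0, 33.3 and 45.6 as its lowest, median and highest brain signal and 0.322, 2.15 and 7.49 in eye-antennal disc. Its tissues did not overlap, and RAL-208 held the highest eye-antennal value. The difference was 10.2-fold (log2 3.35, SE 0.31; limma, adjusted p = 1.9e-08). The gene beat-Va (FBgn0038087), one of 3 clustered paralogs whose proteins bind Side-VI, ran from 14.4 to 23.2 in brain around a median of 15.5, and from 0.0852 to 2.50 in eye-antennal disc around 0.368. Brain exceeded eye-antennal disc 9.71-fold there (log2 3.28, SE 0.24; limma, adjusted p = 8.9e-10). For beat-IIa the brain values of 18.7 to 49.0 stood over eye-antennal values of 1.20 to 10.8, without overlap and 6.67-fold apart.

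Among dpr genes with a value in every library dpr14 (FBgn0029974) led with an 8.19-fold difference. Its brain signal was 8.87, 14.4 and 20.6 at the lowest, median and highest line, against 0, 0.708 and 3.48 in eye-antennal disc, where D. virilis was the line at 0 and RAL-208 the highest. The tissues did not overlap (log2 3.03, SE 0.22; limma, adjusted p = 9.2e-10). Then followed dpr13 (FBgn0034286) at 6.94-fold, dpr4 (FBgn0053512) at 6.36-fold and dpr20 (FBgn0035170) at 6.26-fold, with log2 differences of 2.80, 2.67 and 2.65 and SEs of 0.21, 0.25 and 0.21. Brain signal was 11.4 to 29.1 for dpr13, 9.90 to 17.6 for dpr4 and 9.78 to 17.2 for dpr20, and eye-antennal signal was 0.357 to 5.31, 0 to 4.71 and 0.345 to 2.85. None of the 3 overlapped between these tissues.

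The 7 genes with a missing line were fitted without the lines that lack them, adjusted over 9201 genes, and all 7 were higher in brain than in eye-antennal disc, beside 25.9% of those genes. Their log2 differences were 2.89 for dpr7, 2.59 for dpr11, 2.26 for dpr3, 2.15 for dpr2, 2.06 for dpr8, 1.78 for dpr12 and 1.57 for beat-IIIa. For dpr7 the eye-antennal values were 3.89 to 30.3, with both D. melanogaster strains at the top, and did not reach its lowest brain value. The exons of beat-IIIa overlap those of CG34106 on the same strand in the D. melanogaster annotation, so its reads may be shared.

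**Figure D3:**
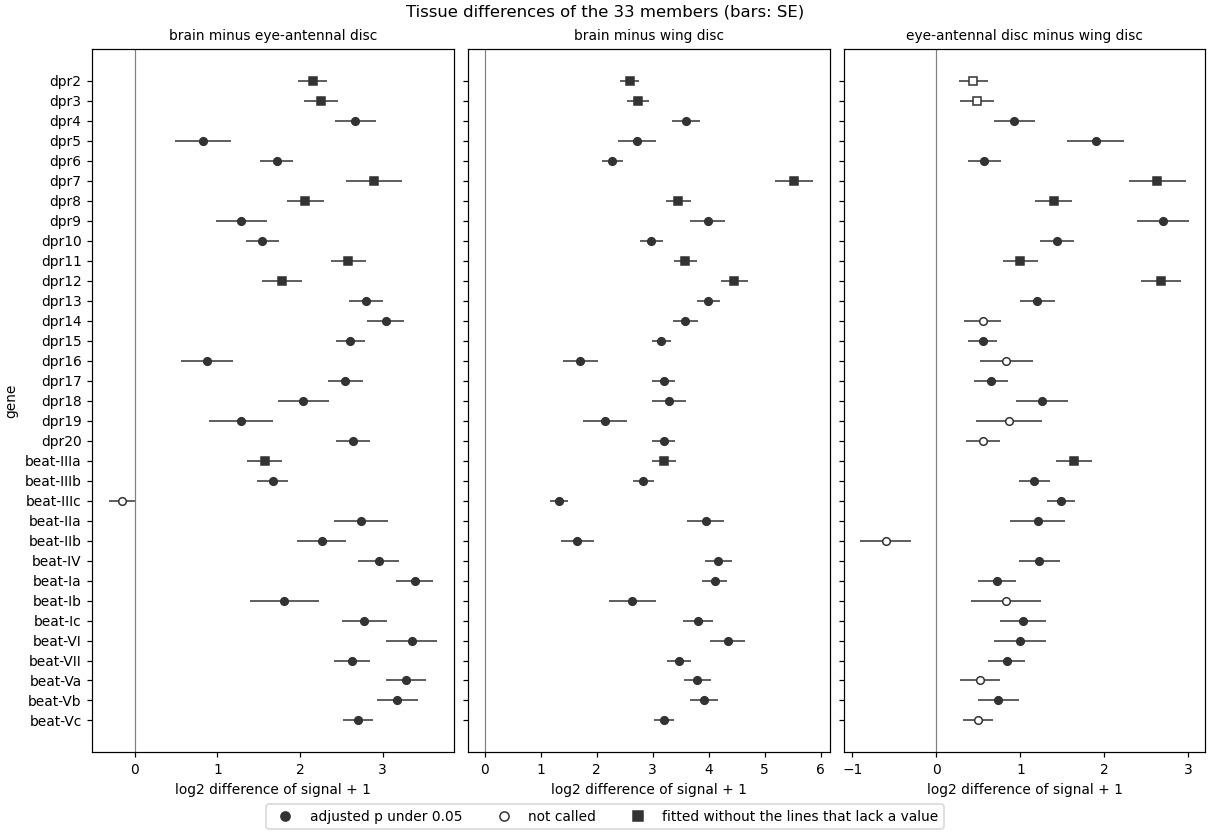
Log2 difference of signal plus 1 with its SE for each of the 33 genes, for brain minus eye-antennal disc, brain minus wing disc and eye-antennal disc minus wing disc. Filled symbols have an adjusted p under 0.05, open symbols do not, and squares are genes fitted without the lines that lack them; beat-IIIc at -0.15 is the open symbol of the first comparison.

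The member with the smallest difference between brain and eye-antennal disc was beat-IIIc (FBgn0032629). Its brain signal was 22.5 in RAL-208 and 21.7 in Canton S, 16.2 in D. yakuba, 14.5 in D. simulans, 14.7 in D. ananassae, 7.69 in D. pseudoobscura, 14.4 in D. willistoni, 16.4 in D. mojavensis and 10.3 in D. virilis. Its eye-antennal signal in the same order was 23.1, 21.7, 21.1, 21.8, 24.1, 14.4, 18.0, 11.4 and 5.09. Brain was above eye-antennal disc in only 3 of 9 lines, and the log2 difference of -0.15 (SE 0.16) did not pass (limma, adjusted p = 0.443). Without the 5 lines with brain-typical transcripts in a disc it was -0.54 and passed as lower in brain (limma, adjusted p = 0.0495). As a share of brain its eye-antennal level had a median of 125%, between 49.6% and 187%, the highest of the 33 genes.

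The next smallest differences among genes with a value in every library were those of dpr5, dpr16, dpr19 and dpr9, whose eye-antennal levels had medians of 73.9%, 24.7%, 30.1% and 40.1% of brain. Median shares of 35.4%, 30.5% and 28.1% were found for beat-IIIa, dpr12 and dpr10. For dpr5 (FBgn0037908) the brain values of 6.49 to 8.92 lay inside eye-antennal values of 0.105 in D. virilis to 20.1 in D. pseudoobscura, with an eye-antennal median of 5.34. Its difference of 0.82 (SE 0.34) passed only narrowly (limma, adjusted p = 0.0479), brain being higher in 8 of 9 lines, and it lost the call in 16 of 19 alternatives, with an adjusted p of 0.00589 to 0.524 over them. Eye-antennal dpr9 (FBgn0038282), which binds DIP-beta, was 9.51 in RAL-208 and 10.6 in Canton S, 7.45 in D. yakuba, 7.10 in D. simulans, 4.19 in D. ananassae, 18.8 in D. pseudoobscura, 4.02 in D. willistoni, 39.6 in D. mojavensis and 3.41 in D. virilis, and its brain signal was 12.0 to 25.2 in 8 lines and 61.5 in D. mojavensis. Brain was higher by 1.29 (SE 0.31) on the log2 scale (limma, adjusted p = 0.00153), except in D. pseudoobscura, where eye-antennal disc at 18.8 exceeded brain at 16.5, and the call was lost in 2 of 21 alternatives.

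For dpr16 (FBgn0037295), a partner of DIP-gamma, the eye-antennal signal was 32.9 in D. virilis and 20.4 in D. mojavensis, above the brain values of 14.4 and 12.6 in those lines, and 0 to 4.77 in the other 7. Its brain minus eye-antennal difference of 0.88 (SE 0.32) passed (limma, adjusted p = 0.0260) but lost the call in 8 of 19 alternatives, which ranged from 0.00228 to 0.363. It did not pass when D. ananassae, D. pseudoobscura, D. simulans or D. willistoni was left out, with 0.71 to 0.81 as log2 differences. The exons of dpr16 overlap those of cno on the opposite strand, and the sources do not say whether counting used strand. For dpr19 the eye-antennal signal was 67.7 in D. mojavensis, 54.0 in D. pseudoobscura, 40.6 in D. willistoni and 24.6 in D. yakuba and 4.52 to 11.3 in the other 5 lines, and its brain signal was 30.2 to 64.6. Brain was higher by 1.28 (SE 0.39; limma, adjusted p = 0.00922), and in 8 of 9 lines, D. mojavensis being the exception. The call was lost in 5 of 22 alternatives, with an adjusted p of up to 0.275, among them the fit with no replicate block and those without the 5 lines.

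In D. pseudoobscura beat-Ib (FBgn0028645) stood alone. Its eye-antennal signal was 109 there, from 2458 reads, against 0.403 to 3.11 in the other 8 lines, and its wing signal was 9.75, against 0 to 2.14. The brain value of 15.8 in D. pseudoobscura was also the highest, above 7.20 to 12.7 elsewhere. With all lines the brain minus eye-antennal difference was 1.81 (SE 0.42; limma, adjusted p = 0.00112), and without D. pseudoobscura it was 2.38 (SE 0.23; limma, adjusted p = 1.8e-07).

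Brain and wing disc were compared next. All 26 genes were higher in brain, beside 32.0% of the 7677 genes higher and 28.2% lower, with a median log2 difference of 3.20 for dpr and 3.80 for beat, against 0.02 for all genes. Every brain value lay above every wing value for 21 of the 26, beside 10.8% of all genes, and below for none, beside 3.58%, and 25 were higher in brain in every line, beside 21.9%, with dpr19 as the exception (8 of 9 lines). The 7 genes with a missing line were all higher too, beside 31.5%.

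Of the beat genes, beat-VI had the widest gap on the scale of signal plus 1. By median wing share of brain the lowest beat gene was beat-Vc at 0.568%, with beat-IV at 0.695% and beat-VI at 0.862%. Brain was 20.3-fold higher there, at 19.0 to 45.6 in brain against 0.0942 to 2.78 in wing disc, a log2 difference of 4.34 (SE 0.31; limma, adjusted p = 2.0e-10). It was 18.0-fold higher for beat-IV (FBgn0039089), at 16.3 to 32.7 against 0 to 1.13 (log2 4.17, SE 0.24; limma, adjusted p = 1.4e-11). For beat-Ia it was 17.2-fold higher, with wing values of 0 to 1.61 (log2 4.11, SE 0.22), and for beat-IIa 15.4-fold, with wing values of 0 in RAL-208 to 6.52 in D. yakuba (log2 3.94). The highest wing values of beat-VI and beat-IV came from D. virilis and that of beat-Ia from D. simulans, the lines with the most brain-typical transcripts in the wing disc. That of beat-IIa came from D. yakuba, where the brain-typical wing median was only 0.847% of brain. The part of such transcripts was not tested.

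Of the dpr genes with a value in every library, dpr13 and dpr9 led on the scale of signal plus 1. The lowest median wing share of brain among these genes was that of dpr18 at 0.460%, with dpr13 at 0.653% and dpr9 at 2.69%. For dpr13 the wing signal was 0 to 1.17, and brain was 15.9-fold higher (log2 3.99, SE 0.21; limma, adjusted p = 3.9e-12). Wing dpr9 was 0.107 to 0.984 in all 9 lines and brain was 15.8-fold higher (log2 3.98, SE 0.31; limma, adjusted p = 6.8e-10). Brain was 12.1-fold higher for dpr4 and 12.0-fold for dpr14. Among genes with a missing line, dpr7 had the widest gap of the 33: its wing signal was 0 in RAL-208 and 1.43 in Canton S, 4.83 in D. simulans, 1.33 in D. ananassae, 0.219 in D. pseudoobscura and 4.81 in D. virilis, 46.0-fold under brain (log2 5.52, SE 0.34; limma, adjusted p = 4.8e-09). For dpr12 the difference was 21.9-fold (log2 4.45).

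The smallest gaps from brain to wing disc were those of beat-IIIc, at 2.51-fold (log2 1.33, SE 0.16; limma, adjusted p = 5.4e-07), beat-IIb at 3.15-fold, dpr16 at 3.27-fold and dpr19 with a log2 difference of 2.15. These 4 also had the highest wing shares of brain, with medians of 32.7% for beat-IIIc, 38.3% for beat-IIb, 19.0% for dpr16 and 18.0% for dpr19. Wing dpr19 was 26.7 to 47.9 in D. virilis, D. willistoni, D. pseudoobscura and D. mojavensis, and 1.02 to 9.28 in the other 5 lines.

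**Figure D4:**
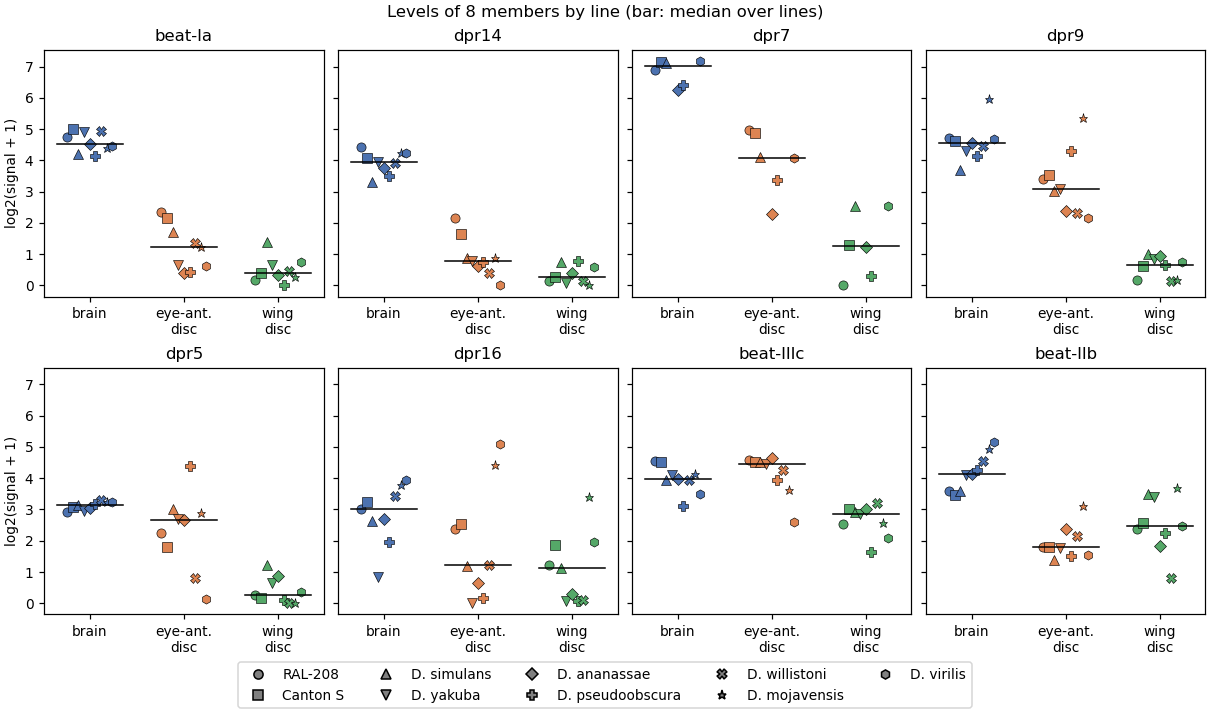
Log2(signal + 1) of 8 members in brain, eye-antennal disc and wing disc, 1 point per line, with a bar at the median. In beat-Ia and dpr14 the brain points stand clear of both discs, in dpr9 and dpr5 the eye-antennal points reach into the brain range, and in beat-IIIc the brain and eye-antennal points overlap.

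Eye-antennal disc was then compared with wing disc. Of the 26 genes 18 were higher in eye-antennal disc and none was lower, 9 of 13 in each family, beside 15.0% of all genes higher and 6.24% lower. The median log2 difference was 0.85, against 0.04 for all genes. The genes dpr14, dpr16, dpr19, dpr20, beat-IIb, beat-Ib, beat-Va and beat-Vc did not pass. Only dpr9 had all eye-antennal values above all wing values, beside 2.05% of all genes, and none had them all below, beside 0.339%, and 5 genes were higher in eye-antennal disc in every line, beside 8.65%. Of the 7 genes with a missing line 5 were higher, beside 14.6%, and dpr3 and dpr2 did not pass.

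Here the count differed with the lines and the filter used. Without RAL-208, Canton S, D. simulans, D. mojavensis and D. virilis, and with the filter on low values at 4 libraries, 30 members could be tested and 7 were higher in eye-antennal disc, beside 7.82% of 8467 genes, with a median log2 difference of 0.42. The 7 were dpr9 at 2.38, dpr12 at 2.29, dpr5 at 2.23, beat-IIIc at 1.65, dpr10 at 1.37, dpr13 at 1.03 and beat-IIIb at 0.95. In the same 4 lines 26 of 30 were higher in brain than in eye-antennal disc, beside 20.2%, and 29 of 30 higher in brain than in wing disc, beside 25.8%. The exceptions were beat-Ib in both comparisons and dpr19, dpr5 and beat-IIIc in the first. Of the 18 called over all lines 12 lost the call in at least 1 alternative, dpr6 most often (12 of 19), and dpr5, dpr9, dpr10, dpr13, beat-IIIb and beat-IIIc in none. Leaving out 1 line at a time gave 12 members higher in eye-antennal disc than in wing disc without RAL-208, 12 without Canton S, 12 without D. mojavensis and 15 to 22 without each other line. The number with a value in every remaining library rises above 26 without D. simulans (dpr2, dpr11 and dpr12 gained) or D. ananassae (beat-IIIa gained). The shares of all genes in these fits are not given.

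**Figure D5:**
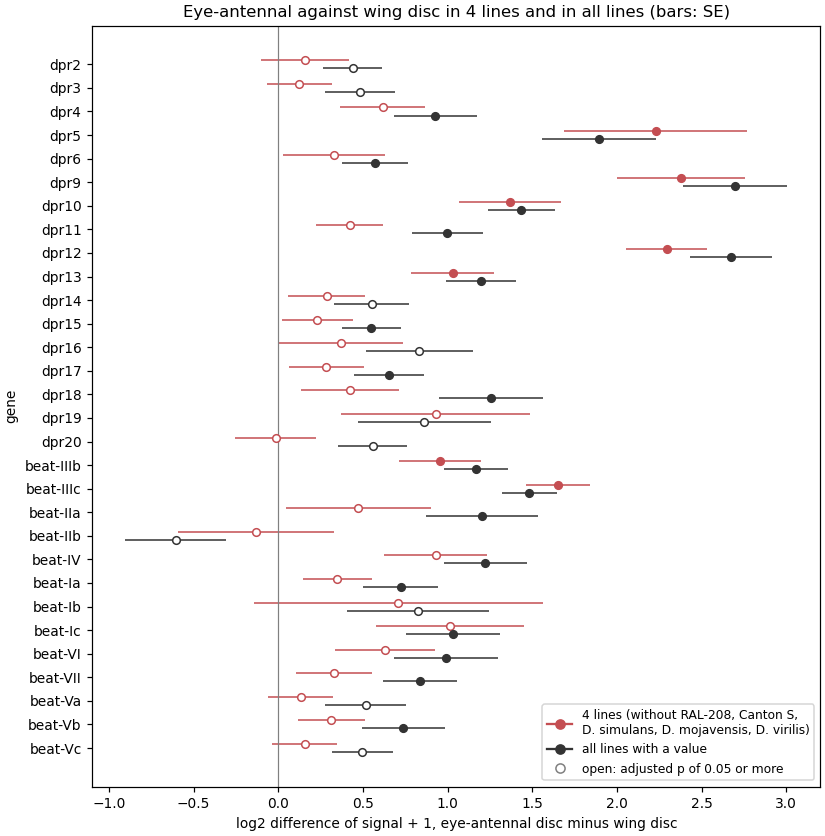
Log2 difference of signal plus 1 for eye-antennal disc minus wing disc with its SE, with the 4 lines that remain when RAL-208, Canton S, D. simulans, D. mojavensis and D. virilis are left out in red and all lines in black; open symbols have an adjusted p of at least 0.05. For dpr9, dpr5, dpr10 and beat-IIIc both values lie well to the right of 0, while many other genes move toward 0 in the 4 lines.

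The largest difference between the discs was that of dpr9, 6.48-fold (log2 2.70, SE 0.31; limma, adjusted p = 1.7e-06), with eye-antennal values of 3.41 to 39.6 against wing values of 0.107 to 0.984. The level of dpr5 was 0 to 1.33 in wing disc and the difference 3.72-fold (log2 1.89, SE 0.34; limma, adjusted p = 0.000332), although eye-antennal dpr5 was lower than wing dpr5 in D. virilis, at 0.105 against 0.293. For dpr10 (FBgn0052057), which like Dpr6 binds DIP-alpha, eye-antennal disc had 0.853, 2.88 and 5.39 as lowest, median and highest signal and wing disc 0, 0.249 and 1.11, which is 2.71-fold (log2 1.44, SE 0.20; limma, adjusted p = 1.6e-05). The signal of dpr18 (FBgn0030723) was 0.192 to 10.3 in eye-antennal disc, highest in RAL-208, and 0 to 3.48 in wing disc, highest in D. virilis. Its difference was 2.39-fold over all lines (log2 1.26, SE 0.31; limma, adjusted p = 0.00552), but 0.42 on the log2 scale in the 4 lines, where it did not pass.

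In the beat family, beat-IIIc was 2.80-fold higher in eye-antennal disc, against wing values of 2.08 to 8.27 (log2 1.48, SE 0.16; limma, adjusted p = 9.2e-07). Differences of beat-IV and beat-IIa were 2.33-fold and 2.31-fold (log2 1.22 and 1.21, SE 0.24 and 0.33), but in the 4 lines they were 0.93 and 0.47 on the log2 scale and did not pass. Among genes with a missing line dpr12 was 6.39-fold higher in eye-antennal disc, at 3.83 to 24.0 against 0 to 1.28 without overlap, and dpr7 was 6.19-fold higher.

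Among the 33 genes only beat-IIb (FBgn0038494) had a lower median in eye-antennal disc, at 2.48, than in wing disc, at 4.52. Its protein, like Beat-IIa, binds Side-IV. Its eye-antennal signal was 2.48 in RAL-208 and 2.51 in Canton S, 2.39 in D. yakuba, 1.62 in D. simulans, 4.18 in D. ananassae, 1.84 in D. pseudoobscura, 3.47 in D. willistoni, 7.64 in D. mojavensis and 1.91 in D. virilis, and its wing signal in the same order 4.23, 4.87, 9.62, 10.2, 2.55, 3.79, 0.767, 11.8 and 4.52. Wing disc was the higher disc in 7 of 9 lines, all but D. ananassae and D. willistoni. The difference of -0.60 (SE 0.30) did not pass (limma, adjusted p = 0.167), and without D. willistoni it was -0.85 (limma, adjusted p = 0.0286).

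The eye-antennal level of each gene was also set beside that of the 73 brain-typical genes in the same library, as a ratio of their shares of brain. Those genes were picked in these libraries for a median share under 10%, so members with larger shares tend to lie above them by that choice. The ratios thus restate the shares and carry no support of their own. This ratio had a median over lines of 22.2 for beat-IIIc, which was above 3 in 9 of 9 lines. It was 10.3 for dpr19 (above 3 in 6 of 9), 6.60 for dpr9 (8 of 9), 6.38 for dpr5 (5 of 9) and 5.68 for dpr12 (6 of 8). At the other end were beat-Va at 0.562, dpr14 at 0.834 and beat-Vc at 0.859, whose eye-antennal share of brain was thus under that of the brain-typical genes in the median line.

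The read counts of the 6 D. melanogaster libraries, which hold all 33 genes, were tested with edgeR with strain as a block. In brain against eye-antennal disc 28 of 33 were higher and none was lower, beside 12.6% of 9476 genes higher and 10.1% lower, and dpr5, dpr16, dpr18, beat-IIIa and beat-IIIc did not pass. In brain against wing disc 33 of 33 were higher, beside 21.6% higher and 18.6% lower, and in eye-antennal against wing disc 30 of 33, beside 10.2% higher and 1.55% lower, without dpr6, dpr16 and beat-IIb. On counts, which are not damped by an added 1, the median log2 differences were 2.32, 5.91 and 4.03. These fits rest on 2 strains, and leaving out 1 library leaves a single library of a tissue. Counts of calls from such fits are therefore not given. Without either eye-antennal or either brain library, calls of members fell in brain against eye-antennal disc and in eye-antennal against wing disc. Other genes lost their calls too in the first of these comparisons without an eye-antennal library. The fall is thus not particular to the members there, and the shares of all genes elsewhere are not given. Both eye-antennal libraries are among those with many brain-typical transcripts.

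Between the strains, RAL-208 minus Canton S over the 3 tissues, edgeR called 0 of 33 members, beside 0.127% of 9476 genes higher and 0.169% lower, with 0 at an unadjusted p under 0.05, beside 16.6% of all genes, and 0 called by DESeq2. The lowest adjusted p was 0.345, for dpr11 (log2 0.49). Each strain had a single library per tissue, so the tissues served as its repeats, with tissue as a block. The difference in tissue contrast between the melanogaster subgroup (RAL-208, Canton S, D. yakuba and D. simulans) and the other 5 lines was tested as an interaction in limma. None of the 26 was called for brain minus eye-antennal disc, brain minus wing disc or eye-antennal disc minus wing disc, beside 0.0391%, 0.313% and 0.0% of genes called higher in the subgroup and 0.0261%, 0.221% and 0.0% lower. At an unadjusted p under 0.05 there were 1, 2 and 4 of the 26, beside 10.6%, 12.8% and 5.16% of all genes tested. The lowest adjusted p was 0.126, for beat-IIb in brain minus wing disc. There its log2 difference averaged 0.73 ± 0.46 (SD, n = 4) in the subgroup and 2.40 ± 0.92 (SD, n = 5) in the other lines. The brain minus wing difference of dpr19 averaged 3.10 ± 0.69 (SD, n = 4) in the subgroup and 1.39 ± 1.84 (SD, n = 5) in the others, and the interaction of 1.71 (SE 0.72) did not pass (limma, adjusted p = 0.316). Without D. ananassae it was 2.52 and passed (limma, adjusted p = 0.0159).

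The partner families were read from the same fits. DIP-lambda, which spans 3 rows under older names, was left out. Of the 10 other DIP rows 7 had a value in every library and 6 of these passed the filter on low values, all but DIP-iota. Of the 6, 6 were higher in brain than in eye-antennal disc, 6 higher in brain than in wing disc and 5 higher in eye-antennal than in wing disc. The 3 DIP rows with a missing line were higher in brain in both comparisons, and 1 of 3 was higher in eye-antennal than in wing disc. Of 8 Side rows 7 had a value in every library, with 6, 6 and 5 higher in these comparisons. The remaining row, side-VI, was higher in all 3 when fitted without the line that lacks it. The background shares are those given above for all genes. Median signals in brain, eye-antennal disc and wing disc were 4.07, 1.47 and 0.554 for DIP-alpha, the partner of Dpr6 and Dpr10, whose discs did not differ past the threshold (limma, adjusted p = 0.363), and 17.5, 1.26 and 0.243 for DIP-gamma, the partner of Dpr11. They were 13.9, 4.17 and 0.224 for DIP-delta, the partner of Dpr12, whose difference between eye-antennal and wing disc was 2.01 (limma, adjusted p = 1.5e-08), beside 2.68 for dpr12.

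For the partners of Beat, the medians in brain, eye-antennal disc and wing disc were 13.5, 4.27 and 1.96 for side, which encodes an attractant on muscle that Beat-Ia recognises. They were 11.9, 2.22 and 0.179 for side-II and 17.5, 3.01 and 0.254 for side-VI. The Beat-II partner side-IV was higher in the discs than most of these genes, at 27.2, 15.6 and 9.94, and side-V, at 31.4, 30.9 and 34.9, was the Side gene that was called in none of the 3 comparisons. These rows give the levels of both sides of known pairs and no measure of which cells express them.

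Several members lie next to each other in the D. melanogaster annotation. No protein-coding gene separates dpr4 from dpr5, yet dpr4 was 6.36-fold higher in brain than in eye-antennal disc, while dpr5 had a log2 difference of 0.82 there. A single gene lies between dpr15 and dpr17, and 1 between beat-Va and beat-Vc, whose brain medians were 15.5 and 9.85. The beat-II pair, with 4 genes between, differed in wing disc, where the medians were 1.10 for beat-IIa and 4.52 for beat-IIb. In the beat-III group, 5 genes separate beat-IIIa from beat-IIIc, and eye-antennal medians were 3.34 for beat-IIIa, 1.44 for beat-IIIb and 21.1 for beat-IIIc. The differences between neighbours were not tested.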

How the data were processed

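The authors deposited read counts per gene for 27 libraries, aligned with TopHat2 2.0 and counted with HTSeq per the submitters' processing notes. The sources used give neither genome builds nor the HTSeq version. The authors also deposited a normalised table of signal. Its signal values equal counts divided by 1 constant per gene and 1 factor per library, and in RAL-208 the constant followed annotated exonic length (Spearman rho 0.977 across 8084 genes, which are not independent replicates). Columns headed only D. melanogaster were assigned to RAL-208. Gene names and neighbours come from Ensembl and RefSeq annotation. No sequences are printed.

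The tissue fits used log2(signal + 1) in limma 3.58.1 (R 4.3.3), with an intensity trend and line as a block, over 7677 genes with a value in every library and at least 1 in at least 9 libraries (16 residual degrees of freedom). Libraries of a line deviated together from their tissue means (correlation across genes 0.625 to 0.863 for 27 pairs), and the block was therefore retained. D. melanogaster counts were tested with edgeR 4.0.16 (TMM, quasi-likelihood F test, CPM of at least 1 in at least 2 of 6 libraries, 2 residual degrees of freedom), with DESeq2 1.42.0 as an alternative. P-values were Benjamini-Hochberg adjusted over every gene tested and called under 0.05. In the tissue fits they rest on how tissue differences vary between lines, since the block takes out the level of each line. In the strain test tissue was the block, and the tissues served as the repeats of a strain. On simulated data limma recovered 77% of 2-fold and 100% of 4-fold changes in brain minus eye-antennal disc over 7677 genes. The simulated errors were independent and normal and their spread was capped, so recovery can be lower for members with a wide spread.

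The members and lists were chosen with earlier results of these data known. Named with the values of each line, a range or a fold are, per tissue comparison, the 4 dpr and 3 beat genes with the largest called differences, called genes of opposite sign, the highest gene of each family and genes with missing values. The genes dpr5, dpr16, dpr19, beat-Ib, beat-IIb and beat-IIIc in other comparisons were named after their values were seen. The fits without some lines at a lower filter, and those on matched counts, were also chosen after seeing the data.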

Additional observations from a re-analysis of the deposited data

Results flagged for a closer look

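In each gene and tissue the lowest and the highest line were checked by Dixon's test on log2(signal + 1), over 99 groups. Chance marks about 1 group in 20, and 13 groups were marked. In D. pseudoobscura beat-Ib was high at 109 in eye-antennal disc, with RAL-208 next at 3.11, and at 9.75 in wing disc, with D. willistoni next at 2.14. Wing dpr6 was 2.71 in D. pseudoobscura, with D. virilis next at 0.895. Brain dpr9 was 61.5 in D. mojavensis, with RAL-208 next at 25.2.

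The wing disc of D. virilis was the high library for dpr13 at 1.17, dpr15 at 0.939, dpr18 at 3.48, beat-IIIb at 1.22, beat-Va at 1.80 and beat-Vb at 2.92. The next lines had 0.387 for dpr13, 0.217 for dpr15, 0.511 for dpr18, 0.425 for beat-IIIb, 0.530 for beat-Va and 0.302 for beat-Vb. In that library the 73 brain-typical genes stood at a median of 4.39% of brain. Wing beat-Ic was high in D. simulans, at 0.786 with D. ananassae next at 0.288, where the brain-typical median was 5.69%. The part of such transcripts was not tested. At the low end, brain dpr4 was 9.90 in D. virilis with D. yakuba next at 13.5, and eye-antennal beat-IIIc was 5.09 in D. virilis with D. mojavensis next at 11.4.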

How the results depend on the processing

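Of the 25, 26 and 18 members called higher in brain than eye-antennal disc, brain than wing disc and eye-antennal than wing disc, 20, 25 and 6 kept the call in every alternative in which they were tested, and 5, 1 and 12 lost it in at least 1. No sign changed except that of dpr20 between the discs, which was not called. Each main count or comparison was set beside its alternatives. Of these pairings 259 kept within 1.5 times and 23, which fell on 8 results, did not. The replicate block of the main fit is the line: with no replicate block, 22, 26 and 11 members were higher in brain than eye-antennal disc, brain than wing disc and eye-antennal than wing disc, against 25, 26 and 18, and over all genes 1210, 1594 and 634, against 2061, 2458 and 1154. A pseudocount of 5 gave 11 higher in eye-antennal than wing disc.

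Without the 5 lines with brain-typical transcripts in a disc and with the filter at 9 libraries, only 5 members could be tested, of which 3, 5 and 2 were higher and 1 (beat-IIIc) lower in brain than eye-antennal disc; with the filter at 4 libraries 7 of 30 were higher in eye-antennal than wing disc and 1 was lower in brain than eye-antennal disc. Without D. simulans, D. yakuba, D. ananassae and D. virilis 13 of 19 were higher in brain than eye-antennal disc, beside 19.1% of all genes, and with the filter at 5 libraries 24 of 30, beside 20%. In eye-antennal against wing disc 14 of 19 were higher, beside 12.4%, and 23 of 30 at that lower filter, beside 12.4%. This set was meant to leave out lines with eye transcripts in the wing disc. The wing photoreceptor sum was only 9.96 in D. virilis, however, and was 23.8 in Canton S, which was kept. RAL-208 and D. mojavensis, with many brain-typical transcripts in the eye-antennal disc, were kept too. Matched counts cover only the 16 members, of 5878 genes, whose signal could be tied to reads in all 27 libraries. On them 15 of 16 and 16 of 16 members were higher in brain than eye-antennal and wing disc, in edgeR and in limma. The shares of all genes and the comparison between the discs are not given for these counts. Leaving out 1 line at a time gave 23 to 27, 26 to 29 and 12 to 22 members higher in the 3 comparisons, 0 to 1 lower in eye-antennal than wing disc (beat-IIb without D. willistoni) and 0 to 1 with a lineage difference in brain minus wing disc (dpr19 without D. ananassae). These counts are not all out of 26, since members missing only in the line left out could then be tested. The shares of all genes are not given for them. On D. melanogaster counts, leaving out 1 library gave 0 to 30 of 33, 31 to 33 and 3 to 31. The strain comparison called 12 genes higher and 16 lower in edgeR and 316 and 188 in DESeq2, none of them members. Rescaling by median of ratios gave 791 genes lower in eye-antennal than wing disc, against 479. The causes were not tested.

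Depth limits the wing values most: a member had a median of 4 reads there, and members at 0 to 1 in both discs give differences that depend on the added constant.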
